A study of Mus with 4 samples.

Results

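Circular RNAs (circRNAs) whose back-spliced ends lay 100000 or more bases apart on the genome, and whose ends were classed as exonic, were examined in mouse ocular tissue. A circRNA was taken where every deposited table that listed it gave the class exon and where its end minus its start plus 1 was at least 100000 bases. The rule kept 924 of the 38100 exonic circRNAs (2.43%) and of the 44073 circRNAs of any class listed in at least 1 library. It used class and position and no measured level.

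Back-splicing joins a splice donor to an acceptor that lies upstream of it in the same transcript, and the introns between the exons of the ring are usually removed. The genomic span of a circRNA is therefore not the length of the RNA ring, and a very wide span generally reflects long introns. Long introns are typical of genes for neuronal adhesion, synapse scaffolds, ion channels and dystrophin, and circRNAs are abundant in neural tissue such as the retina.

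Ocular tissue came from C57BL/6J mice, either wild type or lacking VLDLR (the labels' VLDLR deletion), a receptor for very-low-density lipoprotein and Reelin. The pups breathed 75% oxygen between postnatal day 7 (P7) and P12, and ocular tissue was taken at P12, directly after the oxygen, or at P13, after return to air. Each of the 4 groups (each genotype on each day) held 1 library made from total RNA, and the number of animals behind each is not stated in the labels. Wild-type and deletion libraries shared 0 sequencing runs, so genotype and run cannot be told apart, and for the days age and return to air cannot be told apart either.

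The tables gave back-spliced junction reads, the reads that cross the joint of a ring, with 662811 and 759063 reads in wild type at P12 and P13 and 299723 and 341873 in the deletion at P12 and P13. Sets of 4 values below keep that order. The deletion libraries were thus the shallower ones. A circRNA not listed in a library had under 2 reads there or was left out by the caller, and is written as 0. Vldlr itself had 0 circRNAs in each library, so the deleted gene gave no check of the labels. As for the tissue, 11 of 12 photoreceptor, 5 of 5 muscle and 4 of 5 lens marker genes hosted circRNAs (Cnga1 of the photoreceptor and Mip of the lens genes were at 0), whereas the markers of microglia (0 of 3) and cornea (0 of 2) hosted none. Some of these hosts had few reads, such as Neb of muscle (3, 0, 0 and 0) and Crybb1 of the lens (0, 7, 0 and 0). Dmd gave 1300, 1501, 632 and 832 of the 1374, 1620, 657 and 885 muscle reads.

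The wide circRNAs made up a small and similar part of the exonic circRNAs in each library. They numbered 594, 640, 331 and 383, which was 2.36% (exact 95% interval 2.18 to 2.56), 2.34% (2.16 to 2.52), 2.07% (1.86 to 2.30) and 2.16% (1.95 to 2.38) of the exonic circRNAs listed. The intervals, which cover counting error only, overlapped between all 4 libraries. After thinning each library to 299723 junction reads the shares were 2.25%, 2.19%, 2.07% and 2.12%. Their junction reads were 7369, 8641, 3632 and 4142, or 1.23%, 1.26%, 1.36% and 1.36% of all exonic junction reads. The order of the genotypes by reads was thus the opposite of the order by number. Without the circRNA with most reads, a ring of Atxn1, the read shares became 1.11%, 1.13%, 1.09% and 1.08%.

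Most of the 924 lay near the lower limit of span. The median span was 128804 bases, and 663 (71.8%) were narrower than 150000 bases. The widest spanned 199798 bases, on chromosome 2 from 139857702 to 140057499 in Tasp1, which encodes a protease that cleaves regulators of transcription. It was also the widest circRNA of any class, and its reads were 6, 13, 0 and 0. The sources used here do not say whether the caller had an upper limit on span, so the upper end and the median describe the rings as called. The other 4 of the 5 widest, in Tenm4, Adgrl3, Dennd1a and Prkg1, were each listed in 1 library with 2 to 4 reads. Among circRNAs with 20 or more reads in all, the widest were a pair in Cep112, a gene for a centrosomal protein, of 195792 bases (5, 8, 6 and 6 reads) and 195766 bases (7, 15, 10 and 9 reads). They were followed by circRNAs of 195362 bases in Ppp1r9a (11, 11, 2 and 12 reads), 192745 bases in Nrxn3 (7, 10, 0 and 3 reads) and 191363 bases in Slc10a7 (22, 7, 0 and 5 reads). The rings named here were picked by width, and most held few reads. The 101 circRNAs of 175000 bases or more had a median of 5 reads over all libraries. Not all were low: a Cntn5 ring of 188060 bases had 46, 40, 8 and 7 reads.

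At the 100000-base limit, the nearest circRNAs inside with 20 or more reads were those of Dgki (100146 bases; 130, 148, 55 and 61 reads), Dlg2 (100500 bases; 9, 4, 13 and 14 reads) and Mbd5 (100552 bases; 10, 9, 3 and 8 reads). The nearest outside were those of Dmd (99946 bases; 6, 8, 0 and 7 reads), Frmd4b (99870 bases; 10, 12, 11 and 4 reads) and Diaph3 (99788 bases; 8, 15, 11 and 6 reads). Apart from Dgki, the circRNAs on both sides had similar reads.

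Few wide circRNAs were found in every library, and those that were held most of the reads. Of the 924, 418 (45.2%) were listed in 1 library, 188 in 2, 118 in 3 and 200 (21.6%) in all 4, against 40.2% in 1 and 26.6% in 4 among the 37176 exonic circRNAs below 100000 bases. The 200 held 78.3% of the 23784 junction reads of the wide set. By span, the share listed in all 4 libraries was 32.6% at 500 to 1000 bases, 24.8% at 50000 to 100000, 22.8% at 100000 to 125000, 21.1% at 125000 to 150000 and 26.3% at 150000 to 175000. It was 10.9% among the 101 circRNAs of 175000 bases or more. Intronic circRNAs of the same span (205) were listed in all 4 libraries in 11.2% of cases, and intergenic ones (198) in 21.2%.

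**Figure D1:**
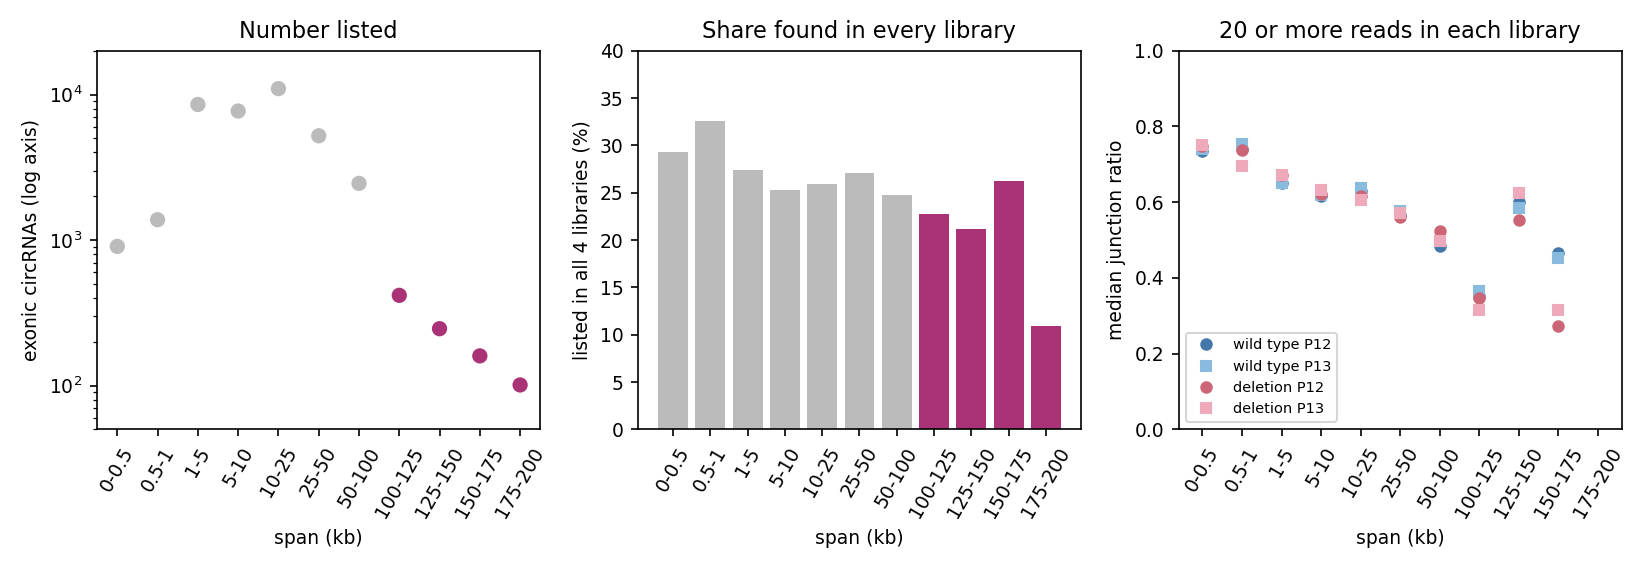
Exonic circRNAs by genomic span in kilobases (horizontal axes; magenta from 100 kb up): their number on a log axis, the percentage listed in all 4 libraries, and the median junction ratio of those with 20 or more reads in each library, 1 point per library. The share listed in all 4 libraries is lowest, at 10.9%, in the widest class, and no circRNA of that class reached 20 reads in each library.

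More wide circRNAs were listed in wild-type tissue alone than in deletion tissue alone. There were 435 (47.1%) listed in wild type alone and 99 (10.7%) in deletion alone, and the shares for the narrower exonic circRNAs were 41.3% and 10.1%. The wild-type libraries were the deeper ones, and the part of depth in these counts was not tested. In both wild-type libraries and neither deletion library stood 108 (11.7%, against 10.2% of narrower exonic circRNAs). They were led by a ring of Fbxl17, an F-box protein of a ubiquitin ligase, on chromosome 17 from 63356748 to 63490887 (19, 13, 0 and 0 reads). In both deletion libraries and neither wild-type library stood 8 (0.866%, against 1.025% of narrower exonic circRNAs). Among these was Mir100hg, the host transcript of a microRNA cluster, on chromosome 9 from 41393194 to 41528200 (0, 0, 8 and 8 reads), and Klhl1, a neuronal actin-binding protein, on chromosome 14 from 96280003 to 96381953 (0, 0, 4 and 6 reads). A ring of Nol4, on chromosome 18 from 22769744 to 22952310, had 37 reads in wild type P12 and was unlisted in the other 3 libraries.

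Reads were concentrated in few rings: the 12 with most reads held 32.5% of the reads of the set. A ring of Atxn1, which encodes a chromatin-associated repressor, led with 742, 899, 729 and 869 reads. It spanned 161067 bases on chromosome 13 from 45795509 to 45956575. A second ring of Atxn1, from 45852328 to 45956575 (104248 bases), followed with 77, 82, 223 and 193 reads. As CPM, with library sizes scaled by edgeR's TMM method, the first had 1299, 1388, 2820 and 2990 and the second 134.8, 126.6, 862.8 and 664. For both, the 2 deletion libraries stood above the 2 wild-type libraries with no overlap on this scaling.

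The rings that followed came from a mixed group of genes. Meis2, a homeobox transcription factor of eye development, had a ring on chromosome 2 from 115921672 to 116049198 with 171, 162, 88 and 90 reads. Bbs9, a subunit of the BBSome that carries cargo to and from cilia, had a ring on chromosome 9 from 22643745 to 22812543 with 186, 229, 38 and 45 reads. On the scaled measure the Bbs9 ring was lower in both deletion libraries (325.5, 353.6, 147 and 154.8 CPM), and the Meis2 ring varied little (299.3, 250.1, 340.5 and 309.7).

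Ano2, a calcium-activated chloride channel, had a ring of 105044 bases on chromosome 6 from 125710556 to 125815599 with 142, 243, 59 and 36 reads. Dgki, a diacylglycerol kinase, had 1 on the same chromosome from 36894776 to 36994921 with 130, 148, 55 and 61 reads. Ppp1r9a, the actin-binding scaffold neurabin, had 1 from 4905226 to 5046068 with 112, 165, 38 and 64 reads. The Dgki ring was nearly level when scaled (227.5, 228.5, 212.8 and 209.9 CPM), whereas the Ano2 ring lay close at P12 (248.5 and 228.3 CPM) and apart at P13 (375.2 and 123.9 CPM). Also among the 12 were a second Bbs9 ring from 22643745 to 22793933 (118, 187, 17 and 34 reads), Scaper (92, 99, 38 and 51), Cep112 (66, 115, 29 and 47) and Dmd, the dystrophin gene, on chromosome X from 83346262 to 83489945 (83, 100, 35 and 38).

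**Figure D2:**
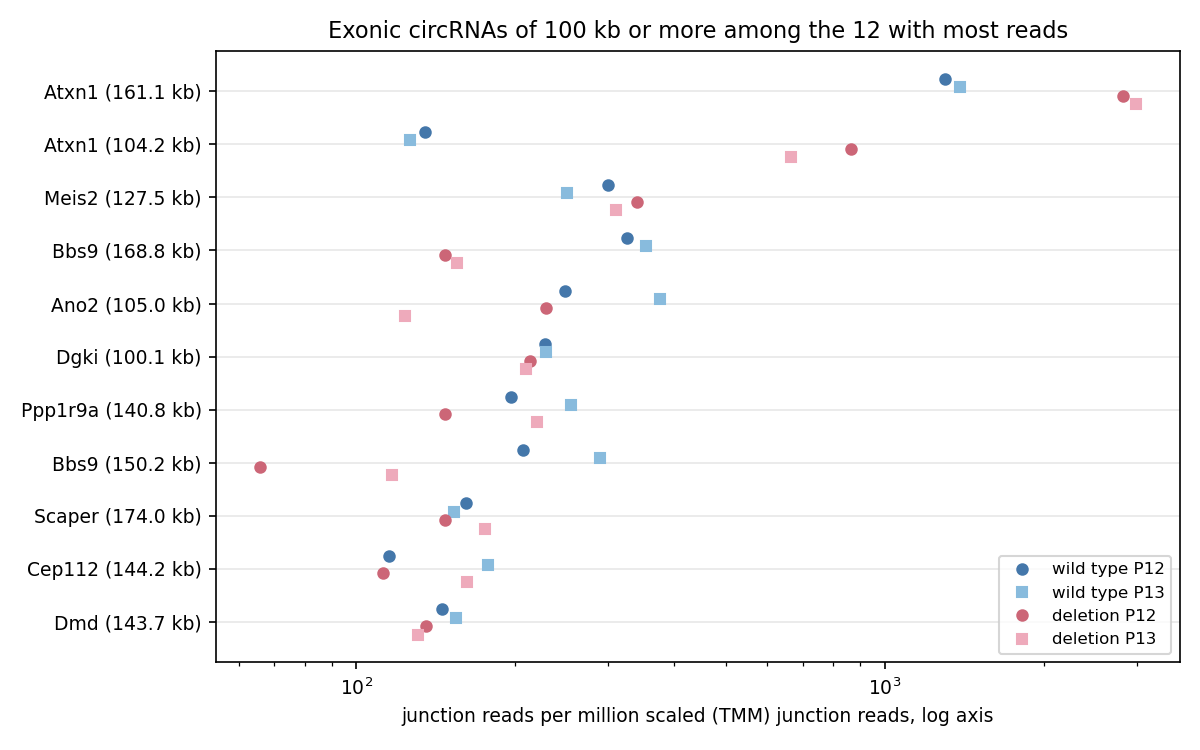
Wide exonic circRNAs among the 12 with most reads, 1 row each with host gene and span; each point is 1 library, placed at its TMM-scaled CPM (log axis). Both Atxn1 rings are higher in the deletion libraries (red) and both Bbs9 rings lower, on this scaling; the Dgki, Scaper and Dmd points lie close together.

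The 924 circRNAs came from 333 host genes, of which 145 gave 1 and 56 gave 5 or more. Dmd gave 20, Pcdh15, a cadherin of photoreceptors and hair cells, 19, Dgki 14 and Dennd1a 12. Bbs9, Gphn and Atp8a2 had 11 each, and Inpp4b and Pcca had 10 each. Many rings did not mean many reads: the 20 rings of Dmd held 639 reads and the 19 of Pcdh15 held 136, whereas 6 rings of Atxn1 held 4455.

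In most hosts the wide rings were a minor product. Of the 333 hosts, 330 also gave an exonic circRNA below 100000 bases, and in these a median of 5.11% of the host's exonic junction reads (interquartile range 1.65 to 15.4) lay in wide rings. In 30 of the 330, the circRNA with most reads was a wide one. Among the 296 hosts with 3 or more narrower circRNAs, Atxn1 had the highest share, with 94.98%, 94.97%, 94.5% and 93.6% of its exonic junction reads in wide rings. Over all 330 the highest was 98.2%, in Rimbp2. Meis2 had 82.3% over all libraries. Bbs9 had 2.90%, since its 51 narrower circRNAs held 31256 reads.

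Wide rings often shared a splice site with another ring. The acceptor of 86.9% and the donor of 78.8% was also used by another exonic circRNA, against 62.7% and 57.5% of narrower exonic circRNAs. In the 4493 narrower circRNAs of the same hosts the shares were 77.1% and 79.0%, so the difference at donors was not seen within these hosts. Single sites served several wide rings. A donor of Rims2, an active-zone scaffold, at position 39616510 of chromosome 15 closed 7, and an acceptor of Tasp1 at 140057499 of chromosome 2 opened 6 with 448 reads together. The acceptor of Ppp1r9a at 4905226 of chromosome 6 opened 5 with 677 reads. Shared sites mean that such rings are not independent of one another.

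Nearly all wide rings enclosed narrower ones: 862 of 924 (93.3%) contained at least 1 exonic circRNA of the same strand, with a median of 5 and at most 47. The host of the enclosed circRNAs was not required to match. A wide span takes in more circRNAs by its size alone, and no such count was made for narrower rings. In 124 of the 862, the wide ring had more reads than each ring inside it. Pairs of wide rings that adjoined, with an overlap of at most 1000 bases, numbered 122 in 44 hosts. In Atxn1 the rings from 45697821 to 45852456 and from 45852328 to 45956575 overlapped by 129 bases.

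In 7 pairs of wide rings, one end was shared and the other lay within 30 bases. The moved end was the acceptor in 4 pairs, and in 3 of these the offset was 3 bases. In 2 of the 3, both from Atxn1, the acceptors were the same, at 45956575 and 45956572. The other, in Vps13d, had 8 and 4 reads, all in wild type P13. Among narrower exonic circRNAs, 106 of 286 acceptor pairs (37.1%) and 2 of 98 donor pairs had an offset of 3 bases. For the 161067-base Atxn1 ring, the acceptor at 45956572 in place of 45956575 took 7.83% (exact 95% interval 6.07 to 9.90), 8.27% (6.62 to 10.2), 7.72% (5.96 to 9.81) and 4.40% (3.16 to 5.94) of the reads of the pair. The share was near 8% in 3 libraries and lower in deletion P13. For the Tasp1 pair, whose donors lay 13 bases apart, the minor ring took 46.9%, 50%, 40.5% and 44.7%, so both donors were used about equally.

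The deposited junction ratio compares reads across the back-spliced joint with other reads at the same sites, on a scale where 1 means that all reads are from the ring. Those other reads did not include all junction reads of other rings that share a site. The Bbs9 ring ending at 22812543 had 427 other reads in wild type P12, where its acceptor held 5341 junction reads, 186 of them its own. Linear RNA had been depleted before sequencing, per the labels' protocols. The ratio was read for the 24 wide circRNAs with 20 or more reads in each library, 5 of them from Atxn1. Their medians were 0.436, 0.429, 0.351 and 0.327, and those of the 2000 narrower exonic circRNAs that met the same minimum were 0.628, 0.638, 0.632 and 0.629. The wide set was lower in 4 of 4 libraries by a mean of 0.246. The difference was uneven over span. The 13 of 100000 to 125000 bases had medians of 0.352, 0.365, 0.346 and 0.316. The 6 of 125000 to 150000 bases had 0.601, 0.585, 0.5525 and 0.6255, near the narrower circRNAs. The 4 lowest of the 24 were Atxn1 rings, and medians without Atxn1 were not taken. An exact two-sided sign-flip test over the 4 libraries gave p = 0.13, the smallest value that 4 libraries allow. The same rings enter each library, so the 4 differences are not independent and this p does not measure the spread over rings. The 402 narrower circRNAs of the same hosts lay between, with 0.492, 0.494, 0.512 and 0.515.

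The ratio ranged widely within the set. Cep112 was highest by its mean over libraries (0.776, 0.777, 0.674 and 0.671), followed by Sergef (0.745, 0.711, 0.703 and 0.667) and Nfib (0.734, 0.834, 0.50 and 0.667). The 3 lowest were Atxn1 rings, the lowest from 45735115 to 45852456 (0.026, 0.028, 0.038 and 0.043). The leading Atxn1 ring had 0.547, 0.527, 0.576 and 0.560, so 1 host covered most of the range. Between genotypes the 24 did not move together: the difference deletion minus wild type had a median of -0.0025 at P12 and -0.014 at P13, with 12 below 0 and 12 above on each day.

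To compare the genotypes over both days, a model with genotype and day was fitted with edgeR to all 8785 circRNAs with 10 or more reads in at least 2 libraries. Of the 924 wide circRNAs, 131 passed that minimum. With 1 library a group, the p-values measure the spread around the sum of the 2 effects, on 1 residual degree of freedom with information shared across circRNAs. At an adjusted p under 0.05, 6 of the 131 (4.58%) were higher in the deletion and 4 (3.05%) were lower, against 5.03% and 3.59% of all tested. The wide circRNAs were therefore called about as often as the background. Their median log2 fold change was -0.06, and that of all tested was -0.08. At an unadjusted p under 0.05 there were 12 higher and 13 lower, against 11.1% and 9.49% of all. DESeq2 called 3 higher and 2 lower, where its background was 2.13% and 1.16%. With the authors' SRPBM library constants as the scaling, edgeR called 1 higher and 67 lower, where the background was 0.285% and 54.3%.

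In whole ocular tissue, a change in the number of cells of a type and a change in RNA per cell cannot be told apart. Among the cell type markers, those of the lens gave more circRNA reads with the deletion on this scaling: their sum was 647.5, 801.3, 2561 and 1968 TMM-scaled CPM, which was 3.96 times the wild-type level at P12 and 2.46 times at P13 (1.54 and 0.832 with the SRPBM constants). The higher sum lay in Bfsp1, a lens filament gene (4.55 and 3.65 times), whereas Cryga, a lens crystallin gene, was at 0.197 and 0.113 of wild type, Bfsp2 and Crybb1 had 0 reads in the deletion libraries and Mip 0 in all 4. The sums of the photoreceptor markers were 1.42 and 1.21 times wild type and those of the muscle markers 1.06 and 1.22 times. Single genes differed from these sums. The photoreceptor genes ranged from Rp1, at 0.170 and 0.194 times wild type, to Sag, at 3.65 and 2.98 times. Most muscle reads came from Dmd (1.075 and 1.235 times), whereas Myh3 was at 0.474 and 0.393 times. Of the wide circRNAs 0 came from a lens marker gene, and the part of lens tissue in the genotype results was not tested.

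Of the 6 higher rings, 4 were from Atxn1. The ring of 104248 bases rose 5.79-fold (log2 fold change 2.53, SE 0.19, edgeR adjusted p = 1.795e-07) and that of 161067 bases 2.16-fold (1.11, SE 0.12, edgeR adjusted p = 9.975e-06). The ring from 45697821 to 45852456 had 39, 56, 53 and 98 reads and rose 3.46-fold (1.79, SE 0.25, edgeR adjusted p = 0.000162). The ring from 45735115 to 45852456 had 24, 34, 32 and 46 reads and rose 2.97-fold (1.57, SE 0.33, edgeR adjusted p = 0.00523). Without wild type P12 the last of these no longer passed (edgeR adjusted p = 0.0582), nor did it with DESeq2 (adjusted p = 0.082), whereas the other 3 passed with DESeq2 and whichever library was left out. Raw reads of these rings were similar or higher in deletion libraries, which held fewer reads in all. The scaling sets the direction for 1 of them: with the SRPBM constants in place of TMM, the log2 fold changes were 1.07, -0.35, 0.32 and 0.11. Only the 104248-base ring passed with these constants (edgeR adjusted p = 0.00869, then 0.0757, 0.270 and 0.766 for the others). The median of all tested moved from -0.08 to -1.54.

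The rings of Atxn1 share sites and did not all move by the same amount. A narrower ring from 45795509 to 45852456 (37, 33, 43 and 54 reads) also rose, with a log2 fold change of 1.61 (edgeR adjusted p = 0.00187). The ring with the acceptor moved by 3 bases (63, 81, 61 and 40 reads) did not pass, with 0.63 (edgeR adjusted p = 0.196). The sums over all wide and over all narrower Atxn1 rings, deletion over wild type, were 2.58 and 2.83 at P12 and 2.42 and 3.14 at P13. At the acceptor 45956575, which serves the 104248-base and the 161067-base ring, the narrower ring took 9.40% (exact 95% interval 7.49 to 11.6) and 8.36% (6.70 to 10.3) of the wild-type junction reads, and 23.4% (20.8 to 26.2) and 18.2% (15.9 to 20.6) of the reads in deletion tissue. This share does not depend on library scaling. Its intervals, which cover counting error only, did not overlap between the single libraries of the 2 genotypes on either day, and the site was chosen after its values were seen.

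The other 2 higher rings rested on few reads. That of Marchf1, a membrane-bound ubiquitin ligase, on chromosome 8 from 66121751 to 66276712 had 4, 7, 19 and 13 reads (log2 fold change 2.65, SE 0.67, edgeR adjusted p = 0.018, DESeq2 adjusted p = 0.075). That of Nckap5, on chromosome 1 from 126258391 to 126382185, had 3, 5, 18 and 11 reads (2.93, SE 0.79, edgeR adjusted p = 0.0257, DESeq2 adjusted p = 0.0765). Without wild type P12 neither passed (edgeR adjusted p = 0.0726 and 0.100), and without wild type P13 Nckap5 did not (edgeR adjusted p = 0.0596). In both, each deletion library exceeded each wild-type library in raw reads in spite of its lower depth. Both rings met the read minimum of the fit through the deletion libraries alone, so that minimum partly set this order. With either deletion library left out, both rings fell below the minimum and were not tested.

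All 4 lower rings had fewer scaled reads in each deletion library than in each wild-type library, and 3 are described here. For Bbs9, the ring ending at 22793933 fell by 1.45 on the log2 scale (SE 0.26, edgeR adjusted p = 0.00135) and that ending at 22812543 fell by 1.17 (SE 0.22, edgeR adjusted p = 0.00193). The ring of Cpq, a peptidase, on chromosome 15 from 33249926 to 33381447 had 47, 58, 5 and 12 reads and fell by 1.504 (SE 0.45, edgeR adjusted p = 0.0472). When reads of 1 ring lying close together on the flow cell were counted once, Cpq no longer passed (edgeR adjusted p = 0.0727). Nor did it without wild type P13 (edgeR adjusted p = 0.0665) or without deletion P12 (0.194), whereas both Bbs9 rings passed whichever library was left out. DESeq2 kept both Bbs9 rings (adjusted p = 0.0284 and 0.0309) and gave 0.313 for Cpq.

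**Figure D3:**
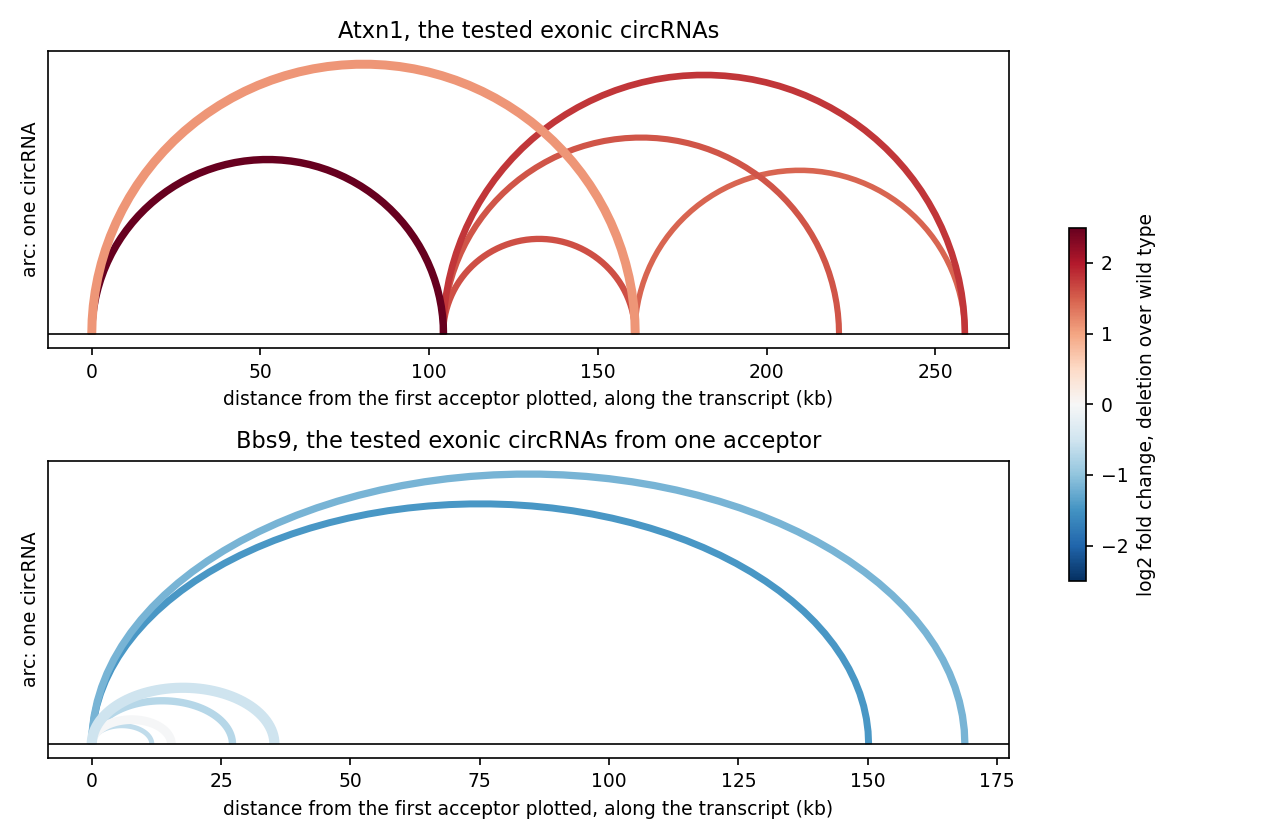
Tested exonic circRNAs of Atxn1, and those of Bbs9 that start at the acceptor of its wide rings, drawn as arcs from acceptor to donor; the horizontal axis is the distance along the transcript in kilobases, the line width grows with the log of total reads and colour gives the TMM-scaled log2 fold change, deletion over wild type. The Atxn1 arcs are all above 0 on this scaling (with the SRPBM constants the ring of 161067 bases is at -0.35) and the 2 wide Bbs9 arcs are below 0; the Atxn1 ring offset by 3 bases is hidden under the leading one.

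Of the 20 narrower Bbs9 rings tested, 3 fell like the wide ones and 2 rose. The rings from 22490818 to 22504109 (1.19, edgeR adjusted p = 0.00803) and from 22887581 to 22887996 (1.53, edgeR adjusted p = 1.581e-07) rose. The ring from 22504045 to 22579593 (193, 160, 21 and 3 reads) fell by 2.81 (edgeR adjusted p = 0.00461). From the acceptor of the wide pair, the most abundant ring, ending at 22679064, fell by 0.52 (edgeR adjusted p = 0.00351) and the one ending at 22670957 fell by 0.72 (edgeR adjusted p = 0.0401). At that acceptor the wide ring ending at 22793933 took 2.21% and 2.53% of the wild-type reads, and 0.890% and 1.58% of those from deletion tissue. In Cpq the narrower ring from 33249926 to 33302547 (42, 56, 5 and 8 reads) fell by 1.76 (edgeR adjusted p = 0.0257), in the direction of the wide one.

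**Figure D4:**
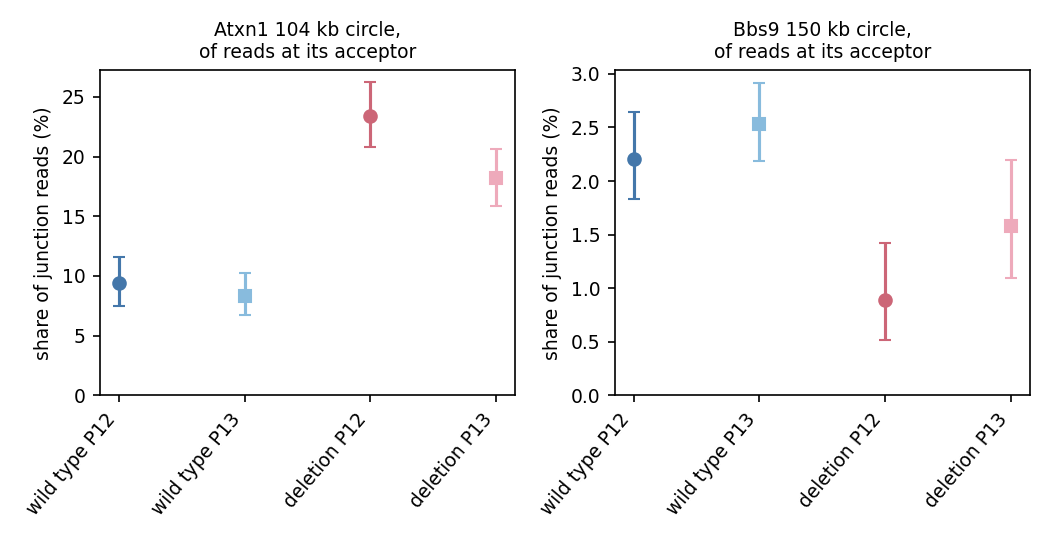
Share of the junction reads at 1 splice site that belong to a wide ring, in percent, 1 point per library with its exact 95% interval (counting error only): the Atxn1 ring of 104248 bases and the Bbs9 ring ending at 22793933, each at its acceptor. The Atxn1 shares are 9.40% and 8.36% for wild type, against 23.4% and 18.2% with the deletion; for Bbs9 the intervals of the genotypes overlap at P13 only.

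Each day was also compared on its own, between 2 single libraries. A call needed 20 or more reads over the pair, a scaled ratio of 2 or above or of 0.5 or below, and an exact 95% interval without 1, a comparison of the libraries and not of the conditions. At P12, 15 of 115 wide circRNAs were higher in the deletion and 15 lower (13.04% each, against 10.9% and 10.6% of all tested). At P13, 10 of 126 were higher (7.94%, background 10.3%) and 14 lower (11.1%, background 9.58%). These shares lay near the background on both days.

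At P12 the largest ratios included those of Nckap5 (13.3, interval 3.87 to 70.3), Marchf1 (10.5, 3.49 to 42.4), the 104248-base Atxn1 ring (6.40, 4.92 to 8.41) and Sox6, a transcription factor (4.14, 1.65 to 11.3). Against the 3-read floor, Nol4 was at least 5.58-fold lower, and Asph and Slc10a7 at least 3.32-fold lower. Sgms1, a sphingomyelin synthase, had a ratio of 0.166 (0.0328 to 0.521) and Rere, a transcriptional corepressor, one of 0.201 (0.0229 to 0.818). The intervals show that the extremes rest on few reads, other than in Atxn1.

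At P13 the largest ratios included those of the same Atxn1 ring (5.24, 4.03 to 6.88), Marchf1 (4.14, 1.53 to 12.2) and the Atxn1 ring from 45697821 to 45852456 (3.90, 2.78 to 5.52). The lowest was an Ano2 ring of 170198 bases from 125710556 to 125880753 (28, 51, 6 and 4 reads; ratio 0.175, 0.0459 to 0.476), whose edgeR adjusted p over both days was 0.0508. It was followed by Diaph2 (0.203), 2 rings of Rere that end at the donor 150570296 (0.235 and 0.307) and Wdr7 (0.318). Of 97 wide circRNAs tested on both days, 71 (73.2%) lay on the same side of 1, against 67.3% of all. On both days 6 were called higher, 4 lower and 0 in opposite directions. Of all 6470 circRNAs tested on both days, 311 were called higher, 249 lower and 16 in opposite directions.

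**Figure D5:**
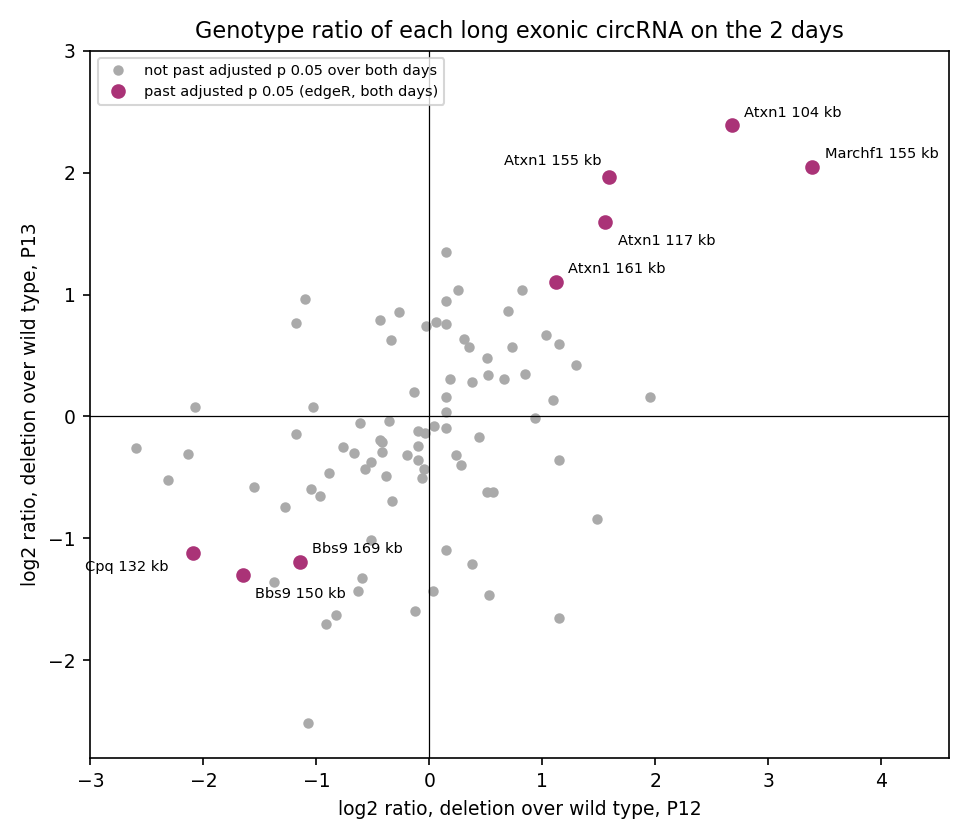
Log2 ratio of deletion over wild type for 90 of the 97 wide exonic circRNAs tested on both days, P12 on the horizontal and P13 on the vertical axis, with TMM-scaled reads; magenta points passed an adjusted p of 0.05 in the edgeR fit over both days (8 of the 10 are shown; Nckap5 had too few reads at P13). The 4 Atxn1 rings and Marchf1 lie at the upper right and the Bbs9 and Cpq rings at the lower left; with the SRPBM constants the Atxn1 ring of 161067 bases falls below 0.

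P13 against P12 gave no call among the wide circRNAs in the edgeR fit: 0 of 131 were higher and 0 lower, against 0.0114% of all tested in each direction. At an unadjusted p under 0.05 there were 4 higher and 1 lower, against 1.8% and 1.78% of all, and DESeq2 called 0 and 0. Between the single wild-type libraries 6 of 153 were higher at P13 (3.92%, background 4.48%) and 10 lower (6.54%, background 4.62%). Between the deletion libraries 1 of 72 was higher (1.39%, background 4%) and 2 lower (2.78%, background 4.19%). Over the wild-type pair, Wdpcp, a ciliary and planar polarity protein, had a ratio of 5.29 (1.54 to 28.1) and Grm8, a glutamate receptor, 4.63. Dock1 had 3.75 and Dym 2.65. Nol4 was at least 13.98-fold and Asph at least 8.31-fold lower at P13, followed by Slc10a7 (0.281), Msra (0.309) and Etl4 (0.339).

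Over the deletion pair, Anks1b (3 and 18 reads) had a ratio of 5.34, Arhgap10 (19 and 7) one of 0.328 and Rimbp2 (17 and 7) one of 0.366. Of 66 wide circRNAs tested in both genotypes, 37 (56.1%) lay on the same side of 1, against 51.6% of all, and 0 were called in both. Of all 4974 circRNAs tested in both genotypes, 11 were called higher in both, 10 lower in both and 9 in opposite directions.

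By host gene lists, 460 wide circRNAs (49.8%) and 13.96% of narrower exonic ones came from a listed gene. Many listed genes have long introns and the lists were drawn up with earlier results known, so that this difference supports nothing. For the genotype calls per list, the background over all circRNAs tested was 5.03% higher and 3.59% lower. Synaptic and neural adhesion genes gave 62 wide circRNAs from 19 genes, of which 7 were tested for genotype and 0 passed in edgeR (median log2 fold change -0.89). Their most abundant were Adgrl3 (68, 47, 7 and 17 reads), Nrxn3 (34, 38, 17 and 16) and Cntn5 (46, 40, 8 and 7). Synaptic scaffolds gave 45, with 11 tested and 0 called. Kinases and phosphodiesterases gave 43, with 6 tested and 0 called.

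Transcription and chromatin regulators gave 45 from 21 genes. Of the 9 tested, 4 rose, all 4 from Atxn1, and 0 fell. Each of these 4 rings shares an acceptor with another of them, so they are not independent of one another. The dystrophin complex, spectrin, ankyrin and muscle list gave 40, with 0 of 8 higher and 1 lower. Photoreceptor and cilium genes gave 39 from 2 genes, 11 of them from Bbs9, with 0 of 6 higher and 2 lower, both from Bbs9. Ion channels gave 27, with 5 tested and 0 called, led by Ano2. Cadherins and catenins gave 31 and neurotransmitter receptors 13, with 1 tested in each and 0 called.

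The lipoprotein receptor and Reelin pathway, to which the deleted gene belongs, gave 9 wide circRNAs from 4 genes. Reln, the secreted ligand of this receptor, had rings on chromosome 5 from 22128615 to 22287003 (14, 25, 7 and 19 reads) and from 22152408 to 22287003 (18, 28, 6 and 11 reads). Dab1, the adaptor that the receptor signals through, had one on chromosome 4 from 104479074 to 104613267 (16, 21, 7 and 7 reads). Of the 4 tested, 0 were called in either direction, with log2 fold changes of 0.51, -0.30 and -0.24 for these 3 (edgeR adjusted p = 0.638, 0.814 and 0.874). Guidance genes gave 13 and RNA-binding genes 15, with 0 tested in both lists. Extracellular matrix and glycosylation genes gave 14, with 4 tested and 1 lower, and ubiquitin ligase genes gave 9, with 1 tested and 0 called. A gene can stand in more than 1 list, so calls in different lists are not always separate rings.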

How the data were processed

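The deposited tables, in CIRI's column layout per the file headers, give junction and non-junction read counts, class, strand, host and a junction ratio per circRNA. The authors' junction ratio, a fraction, equalled 2 times the junction reads over that plus the non-junction reads (within 0.001 for 100% of circRNAs). The deposited SRPBM signal equals junction reads divided by 1 constant a library (9.14, 9.10, 10.6 and 12.1), of a basis not stated in any source here. The submitters' processing notes name BWA and DESeq2 without role or version. The sources used here give neither build nor annotation, and coordinates are as deposited. Host identifiers were named from a RefSeq table (GRCm38.p6, names only; 99.81% to 99.85% matched). No sequence was available to print. Some circRNAs covered by the rules below are not reported here. Acceptor and donor were taken from the strand.

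Counts were scaled by TMM over circRNAs that reached 10 reads in 2 or more libraries and fitted with genotype and day by edgeR 4.0.16 quasi-likelihood (R 4.3.3), with Benjamini-Hochberg adjustment over all 8785. DESeq2 1.42.0 was an alternative. Pairs of libraries were compared by exact conditional (Clopper-Pearson) intervals, with scipy 1.17.1, which cover counting error only. Unlisted rings were set to the 3-read floor for bounds. The procedures were tested on simulated data. Members and lists were chosen with earlier results of these data known. Named circRNAs were those with most reads (12), the widest, the nearest to the limit, the extremes of junction ratio, the called ones (up to 10 per direction over both days, 5 per pair), the leading hosts and the leading 3 of a list. Splice-site shares, the pairs offset by few bases, further rings of called hosts, the single marker genes described and Rimbp2 among the hosts were chosen after values were seen. Other scalings, filters, left-out libraries and collapsed neighbouring reads were tried.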

Additional observations from a re-analysis of the deposited data

Results flagged for a closer look

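For 5 wide circRNAs a ratio was called in 1 pair of libraries while the ratio of the other pair lay on the other side of 1, with an exact 95% interval that included 1 each time. The differences were not tested, and each rests on single libraries. Reads are given for wild type at P12 and P13 and then for the deletion at P12 and P13. Anks1b, a postsynaptic protein gene, had a ring on chromosome 10 from 90042546 to 90163304 with 28, 38, 3 and 18 reads, and its ratio of deletion over wild type was 0.237 (exact 95% interval 0.0461 to 0.767) at P12 and 1.06 (0.567 to 1.90) at P13. For AW554918, on chromosome 18 from 25174687 to 25290066 (32, 62, 16 and 13 reads), the ratio was 0.467 (0.236 to 0.859) at P13 and 1.105 (0.566 to 2.07) at P12. Wdr7, from 63791796 to 63935948 of that chromosome (11, 28, 11 and 4 reads), had 0.318 (0.0811 to 0.910) at P13 and 2.21 (0.869 to 5.62) at P12.

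Rimbp2, an active-zone protein gene, had a ring on chromosome 5 from 128819743 to 128953192 with 26, 43, 17 and 7 reads. Its genotype ratio was 0.363 (0.138 to 0.813) at P13 and 1.45 (0.736 to 2.77) at P12, and its ratio of P13 over P12 was 0.366 (0.128 to 0.929) in the deletion and 1.46 (0.876 to 2.47) in wild type. Arhgap10 had a ring on chromosome 8 from 77257326 to 77365160 with 15, 28, 19 and 7 reads. Its genotype ratio was 2.80 (1.35 to 5.92) at P12 and 0.557 (0.205 to 1.305) at P13, and its ratio of P13 over P12 was 0.328 (0.116 to 0.814) in the deletion and 1.65 (0.850 to 3.32) in wild type. For both of these genes the same reads enter both ratios.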

How the results depend on the processing

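The 1 library a group gives no spread within a group, and 131 of the 924 wide circRNAs had reads enough for the genotype fit. The labels carry no replicate numbers to pair by; the day term compared the genotypes within each day, and without it 8 wide circRNAs were higher and 3 lower. Leaving out a library left 1 in an arm, which was assumed to vary like the other arm, and only the tested term was fitted. The 200000-base span gave no value, since the widest circRNA listed in any class had 199798 bases; the sources used here do not say whether the caller limited span.

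For the genotype fit, where 6 wide circRNAs were higher and 4 lower, the SRPBM constants gave 1 and 67 and DESeq2 3 and 2. The filter of 5 reads gave 10 lower and collapsed neighbouring reads 2 lower; leaving out 1 library gave 3 to 5 higher (3 without wild type P12) and 3 to 10 lower (10 without deletion P12, 9 without deletion P13). The lower calls over all tested moved too, to 7.92% without deletion P12 (wide circRNAs 8.13%) and 10.4% without deletion P13 (7.38%). Of 116 re-estimates of the 10 called rings, 94 kept direction and call, 21 lost the call and 1 reversed: the 161067-base Atxn1 ring, at -0.35 with the SRPBM constants. The causes of these changes were not tested.

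Between single libraries at P12 (15 higher, 15 lower) the SRPBM constants gave 3 and 71, a minimum of 10 reads 27 and 31, and of 50 reads 5 and 7. At P13 (10 and 14) these gave 0 and 89, 17 and 34, and 5 and 8. For the days in wild type (6 and 10) the SRPBM constants gave 10 higher, 10 reads 13 and 18, 50 reads 0 and 1, and a fold of 1.5 gave 11 higher. For the deletion (1 and 2), 10 reads gave 5 and 8, 50 reads 0 and 0, a fold of 1.5 gave 2 and 4, and collapsed reads 1 lower.

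The share of exonic circRNAs listed became 2.09% in wild type P13 and 1.77% in deletion P13 for those with 5 or more reads. From 50000 bases up it was 8.75%, 8.73%, 8.27% and 8.43%. Weighted by reads it was 1.23%, 1.26%, 1.36% and 1.36%, and without the leading Atxn1 ring 1.11%, 1.13%, 1.09% and 1.08%.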

Other observations

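Among the hosts of wide circRNAs, 77 had at least 1 wide ring tested for genotype and 6 had one called. A share over all hosts was not taken. Of the 1345 narrower exonic circRNAs tested in hosts of wide rings, 5.65% were higher in the deletion and 2.90% lower in the edgeR fit. These shares lay near the 5.03% and 3.59% of all circRNAs tested. Chromosome 6 held 73 wide circRNAs (7.90%, against 4.90% of narrower exonic ones) and chromosome 11 held 28 (3.03%, against 7.16%). These 2 chromosomes were chosen after their values were seen. Collapsing reads of 1 ring that lay close together on the flow cell removed 6.62%, 5.68%, 7.24% and 6.66% of the reads of wide circRNAs (wild type at P12 and P13, then deletion at P12 and P13), and 7.54%, 7.42%, 7.48% and 7.41% of those of narrower exonic circRNAs.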
